A study of Mus musculus with 42 samples.

Results

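The genes described here encode 9 digestive enzymes and colipase, a lipase cofactor, all made by the acinar cells of the exocrine pancreas: the elastases *Cela1*, *Cela2a* and *Cela3b*, the chymotrypsins *Ctrb1* and *Ctrl*, the carboxypeptidases *Cpa1* and *Cpb1*, and the lipid-digestion genes *Pnlip*, *Cel* and *Clps*. They are 10 of the 26653 genes listed for each tissue. They were selected on the values reported below, that is their levels in wild-type (WT) and *Tug1* knockout (KO) tissue, above all in spleen and liver, so those levels are given as a description and carry no test.

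RNA-seq of polyA RNA had been made from 42 samples of male mice, 22 WT and 20 KO, to ask what loss of the long noncoding RNA *Tug1* does to gene expression across tissues. All animals belonged to the strain Tug1_tm1.1Vlcg on a C57BL/6J background (given as N3-C57BL/6J) without the Neo cassette. WT mice had normal *Tug1* on both alleles and no reporter, and in KO mice a lacZ reporter stood in place of *Tug1* on both alleles. KO animals lacked the gene in every cell from conception, so the tissue in which a change began cannot be read from these groups. Spleen, liver, eyes and heart were taken from 3 WT and 3 KO mice each, testes from 4 WT and 3 KO mice, and prostate from 3 WT and 2 KO mice, at an adult age that is not given in the sources used here. Mouse embryonic fibroblasts (MEFs), primary cells grown from embryos and used at passage 2, came from 3 WT and 3 KO samples.

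Acinar cells make up most of the pancreas and export their product. They load digestive enzymes, many of them as inactive zymogens, into granules and release them into the duct that leads to the gut. Their enzyme messenger RNAs make up much of the RNA of the pancreas. The spleen is an organ of blood and immune cells and is not a site of digestive enzyme synthesis. The tail of the pancreas lies against the hilum of the spleen.

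For each tissue the deposited table holds 1 combined FPKM value (fragments per kilobase of transcript, scaled to the sequenced fragments of the group) for WT and 1 for KO. No value per animal was available, so nothing below has a replicate error, and whether 1, 2 or all 3 KO spleens carried the levels reported cannot be read from the table. A gene was counted as past 2 times when log2((KO + 0.1)/(WT + 0.1)) lay over 1 or under -1 and the mean of WT and KO was at least 1 FPKM. The labels were checked first. *Tug1* lay between 11.2 and 27.7 FPKM in the 7 WT groups and between 0.00753 and 0.402 FPKM in the 7 KO groups, and the LacZ reporter was at most 0.00894 FPKM in WT and at least 0.355 FPKM in KO. Of the marker genes of each labelled tissue, all 11 were at a mean of at least 1 FPKM in spleen, 10 of 12 in liver, 4 of 5 in prostate, and all 5 in testes, eyes, heart and MEFs. The exceptions were *Alb* and *Serpina1a* in liver and *Tgm4* in prostate, which are listed at 0 in both genotypes although these tissues make them abundantly. A value of 0 in this table can thus be a failed estimate. All of these exceptions carry the authors' status LOWDATA, which none of the enzyme genes described here has in any tissue.

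The 10 genes lie on 8 chromosomes. Positions are those of GENCODE vM21 on GRCm38, the assembly also called mm10. The elastase genes are *Cela1* (ENSMUSG00000023031.7, chr15:100674421-100687921, minus strand), *Cela2a* (ENSMUSG00000058579.5, chr4:141814962-141826160, minus strand) and *Cela3b* (ENSMUSG00000023433.8, chr4:137420999-137430540, minus strand). The chymotrypsin genes are *Ctrb1* (ENSMUSG00000031957.5, chr8:111686519-111691010, minus strand) and *Ctrl* (ENSMUSG00000031896.6, chr8:105932003-105933862, minus strand). The carboxypeptidase genes are *Cpa1* (ENSMUSG00000054446.8, chr6:30639218-30645363, plus strand) and *Cpb1* (ENSMUSG00000011463.5, chr3:20248264-20275733, minus strand). The lipid-digestion genes are *Pnlip* (ENSMUSG00000046008.7, chr19:58652498-58681788, plus strand), *Cel* (ENSMUSG00000026818.5, chr2:28555795-28563403, minus strand) and *Clps* (ENSMUSG00000024225.4, chr17:28558149-28560766, minus strand).

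Because reads from near-identical stretches cannot be assigned with certainty, the annotated transcripts of each gene were cut into all 50-base words and searched in the transcripts of every other gene, on both strands. No word was shared for 8 of the 10 genes. *Cela3b* shared 19.2% of its words with its paralog *Cela3a*. *Cela2a* shared 15.6%, or 261 words, all of them with the chymotrypsin gene *Ctrc*, whose annotation overlaps it on the same strand. Of these words, 46 were also in *Casp9*, a gene of the opposite strand whose end overlaps *Cela2a*. The library kit does not mark the strand, so low values of *Cela2a* cannot be told apart from reads of *Casp9*.

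The windows below show the 6 genes whose RefSeq start of transcription lies within 1 base of the start of the gene in GENCODE. Each is the 150 bases before the start, written 5′ to 3′ on the strand of the gene, from RefSeq on GRCm38.p6. Capitals mark matches, on either strand, to CACCTG, a form of the E-box bound by the acinar factor PTF1A and its partners, to TTTCCC, the second element bound by the same complex, and to TATAAA, a common core promoter element.
*Cela1*, chr15:100687921-100688070, minus strand: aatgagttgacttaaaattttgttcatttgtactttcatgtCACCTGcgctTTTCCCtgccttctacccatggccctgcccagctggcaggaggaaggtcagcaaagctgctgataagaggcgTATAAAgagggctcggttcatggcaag
*Ctrb1*, chr8:111691011-111691160, minus strand: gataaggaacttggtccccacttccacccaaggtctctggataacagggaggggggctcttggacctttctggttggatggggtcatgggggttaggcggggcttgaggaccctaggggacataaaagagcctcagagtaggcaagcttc
*Ctrl*, chr8:105933863-105934012, minus strand: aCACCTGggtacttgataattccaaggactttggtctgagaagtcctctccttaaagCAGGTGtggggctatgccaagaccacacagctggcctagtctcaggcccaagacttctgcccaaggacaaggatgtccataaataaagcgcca
*Cpa1*, chr6:30639068-30639217, plus strand: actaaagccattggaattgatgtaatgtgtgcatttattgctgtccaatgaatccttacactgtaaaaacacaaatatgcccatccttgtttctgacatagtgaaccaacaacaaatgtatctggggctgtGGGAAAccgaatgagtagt
*Cpb1*, chr3:20275734-20275883, minus strand: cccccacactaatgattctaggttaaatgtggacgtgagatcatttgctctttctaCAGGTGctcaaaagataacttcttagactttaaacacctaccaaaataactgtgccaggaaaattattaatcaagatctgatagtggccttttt
*Cel*, chr2:28563404-28563553, minus strand: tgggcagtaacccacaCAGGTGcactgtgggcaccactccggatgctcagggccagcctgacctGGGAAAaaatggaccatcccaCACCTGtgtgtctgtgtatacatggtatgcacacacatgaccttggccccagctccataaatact
The *Cela1* window held all 3 motifs, with CACCTG starting 109 bases and TTTCCC 99 bases before the start, and TATAAA 27 bases before it. The *Cel* window held a reverse CACCTG 134 bases, a reverse TTTCCC 86 bases and a forward CACCTG 65 bases before the start. *Ctrl* and *Cpb1* held CACCTG and neither of the other motifs. *Cpa1* held a reverse TTTCCC 19 bases before the start and no CACCTG, and *Ctrb1* held none of the 3 within this window. A RefSeq promoter was matched by symbol for 9 of the 10 genes, all but *Clps*. In the 250 bases before the start, CACCTG occurred in 6 of these 9, against 17.1% of 27025 genes, TTTCCC in 5 of 9, against 21.9%, and TATAAA in 2 of 9, against 13.0%. These are matches of letters, and binding was not measured.

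In spleen all 10 genes were higher in KO, by more than 2 times, where 1.67% of the 12618 genes with a mean of at least 1 FPKM were higher by that much and 0.23% were lower. Since these spleen values chose the genes and 8 of the 10 passed the filter only through KO spleen, the count of 10 is no finding, and the size of the values is what is described. Together the genes summed to 20.1 FPKM in WT and 3059 FPKM in KO, which was 0.00422% and 0.626% of the summed FPKM of all genes. The ratio of KO to WT ran from 30.4 for *Cela1* to 1287 for *Clps*, with a median of 625. In bulk tissue more cells of a type and more RNA per cell cannot be told apart.

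The elastases are serine proteases that cut elastin and other proteins after small residues. *Cela2a* went from 0.880 FPKM in WT spleen to 543 in KO spleen, a change of 9.11 on the log2 scale. *Cela3b* went from 0.102 to 115 FPKM, a change of 9.16. *Cela1* went from 15.6 to 473 FPKM, a change of 4.92, the smallest of the 10. *Cela1* was alone among the 10 in having a WT spleen level above that of *Ctrb1* (1.003 FPKM), and its difference of 458 FPKM between KO and WT was of the same order as the 542 FPKM of *Cela2a*.

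The chymotrypsins cut proteins after aromatic and other large residues. *Ctrb1*, the major mouse chymotrypsinogen, went from 1.003 to 635 FPKM in spleen, the highest KO level of the 10, and its change was 9.17. *Ctrl*, a chymotrypsin-like protease, went from 0.958 to 182 FPKM, a change of 7.43. Its ratio of 190 was the lowest after that of *Cela1*.

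The carboxypeptidases trim single residues from the ends of peptides, *Cpa1* those with bulky or aromatic side chains and *Cpb1* the basic ones. *Cpa1* went from 0.383 to 199 FPKM, a change of 8.68. *Cpb1* went from 0.253 to 124 FPKM, a change of 8.45. The ratios of KO to WT were 518 and 488.

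The lipid-digestion genes encode pancreatic triglyceride lipase (*Pnlip*), its cofactor colipase (*Clps*), which anchors the lipase at the surface of a fat droplet in the presence of bile salts, and the bile salt-activated carboxyl ester lipase (*Cel*). *Pnlip* went from 0.553 to 367 FPKM, a change of 9.14. *Cel* went from 0.276 to 192 FPKM, a change of 8.99. *Clps* went from 0.178 to 229 FPKM, a change of 9.69, the largest of the 10. Their WT values lay under 1 FPKM, and the reads behind them are unknown, so these ratios carry an error that could not be estimated.

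**Figure D1:**
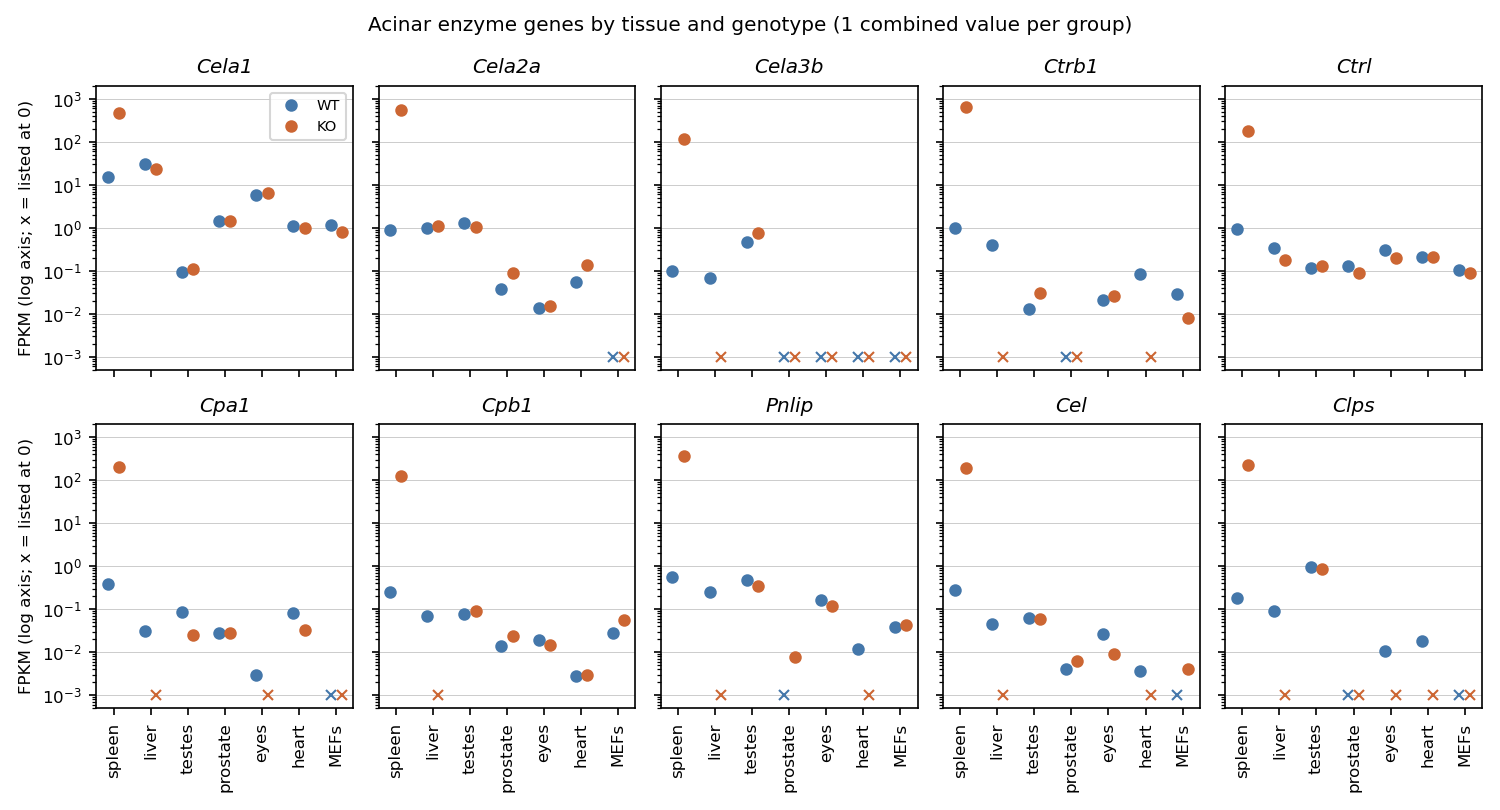
FPKM (log axis) of the 10 enzyme genes in WT (blue) and KO (orange) tissue, 1 combined value per group, with crosses for values listed at 0. In each panel the KO spleen value, from 115 FPKM for Cela3b to 635 FPKM for Ctrb1, is the highest of the 14. WT spleen lies at or below 1.003 FPKM for all but Cela1, at 15.6 FPKM.

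The 12618 spleen genes were ranked by change from the largest rise in KO, so that falls stand last. *Clps*, *Ctrb1*, *Cela3b* and *Pnlip* held places 2 to 5, and *Cela2a* and *Cel* places 7 and 8. *Cpa1* and *Cpb1* held places 15 and 16, *Ctrl* place 24 and *Cela1* place 32. The gene in first place was *Gm10985*, a predicted gene listed at 0 in WT and at 128 FPKM in KO. The authors' status for it was NOTEST (not tested), whereas that of all 10 enzyme genes in spleen was OK. Ranked by level in KO spleen, *Ctrb1* was at place 119 and *Cela3b*, the lowest, at place 493. The enzyme messages thus stood among the more abundant ones in the combined value of the KO spleen samples.

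**Figure D2:**
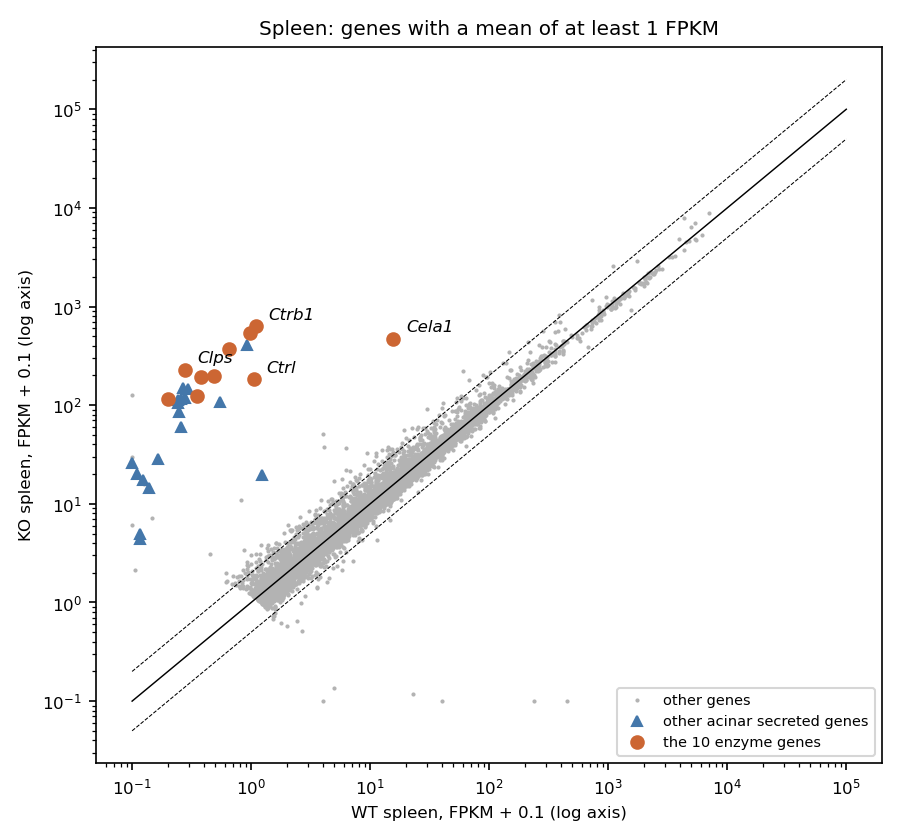
KO against WT level in spleen, both as FPKM + 0.1 on log axes, for the 12618 genes with a mean of at least 1 FPKM; the solid line marks equal levels and the dashed lines 2 times. The 10 enzyme genes (orange) and the other acinar secreted genes (blue triangles) lie far above the diagonal, with Ctrb1 at 635 FPKM in KO, while most genes (grey) lie between the dashed lines.

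The make-up of the enzyme mix was compared between genotypes as the share of each gene in the sum of the 9 genes other than *Cela1*, which was 4.59 FPKM in WT spleen and 2586 FPKM in KO spleen. For 6 of the 9 genes the KO share was within 1.5 times the WT share, between 0.866 and 1.23 times it. *Ctrb1* made up 21.9% of the sum in WT and 24.6% in KO, and *Cela2a* 19.2% and 21.0%. *Pnlip* made up 12.1% and 14.2%. These were the 3 most abundant of the 9 in KO spleen, and *Ctrb1* was the first of the 9 in both genotypes. *Ctrl* had the lowest KO share relative to WT, 7.05% against 20.9%. *Cela3b* went from 2.22% to 4.47%, and *Clps* from 3.88% to 8.85%. Whether these departures exceed the error of the low WT values could not be tested. The WT value of *Cela2a* cannot be told apart from reads of *Casp9*, which was at 10.6 FPKM in WT spleen. Every WT share rests on a sum that includes *Cela2a*.

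**Figure D3:**
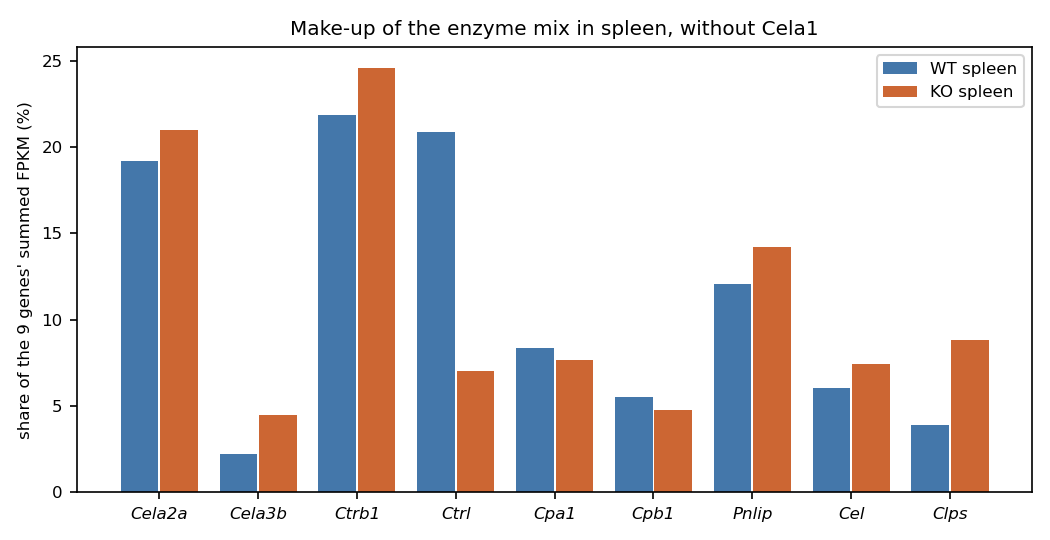
Share (%) of each of 9 enzyme genes in their summed FPKM in WT spleen (blue bars) and KO spleen (orange bars), without Cela1. Ctrb1 is highest in both, at 21.9% and 24.6%, and Ctrl shows the widest gap, 20.9% in WT and 7.05% in KO.

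In liver no gene of the 10 was past 2 times in either direction, where 0.82% of 11711 genes were higher by that much and 0.581% lower, but only *Cela1* and *Cela2a* reached the mean of 1 FPKM. *Cela1* was at 31.5 FPKM in WT liver and 22.9 in KO liver, a change of -0.46. *Cela2a* was at 0.972 and 1.10 FPKM, while the overlapping *Casp9*, a caspase gene, was at 14.7 and 9.57 FPKM. *Ctrl* was at 0.343 and 0.175 FPKM. The levels of these 3 genes differed by less than 2 times between genotypes.

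The other 7 genes had a low value in WT liver and were listed at 0 in KO liver. *Ctrb1* was at 0.410 FPKM in WT and *Pnlip* at 0.249 FPKM. *Clps* was at 0.0911, *Cela3b* at 0.0685, *Cpb1* at 0.0677, *Cel* at 0.0456 and *Cpa1* at 0.0306 FPKM in WT. In liver, 9 of the 10 genes thus had a lower value in KO and *Cela2a* a higher one, where 51.4% of the 19565 genes above 0 in either genotype had a lower value in KO. These liver values helped to choose the genes, 7 of the 9 rest on a KO value of 0, and no direction is read from the count. The sum without *Cela1* was 2.28 FPKM in WT liver and 1.27 in KO liver, so the liver values lay near the lower end of what the table lists, and no fold is given against a group at 0.

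In testes, *Cela2a* was at 1.28 FPKM in WT and 1.03 in KO, *Clps* at 0.947 and 0.863, *Pnlip* at 0.484 and 0.340, and *Cela3b* at 0.459 and 0.769. The remaining 6 genes did not exceed 0.127 FPKM in testes of either genotype. None of the 10 was past 2 times there, where 0.291% of 15143 genes were higher and 0.185% lower by that much. The testis is the tissue with the next highest *Clps* and *Cela3b* levels after KO spleen.

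*Cela1* was the one gene of the 10 with levels near or above 1 FPKM in the remaining tissues. It was at 5.73 FPKM in WT eyes and 6.58 in KO eyes. Its level was 1.42 and 1.45 FPKM in prostate and 1.11 and 1.002 in heart. In MEFs it was at 1.16 and 0.807 FPKM. The other 9 genes had at most 0.307 FPKM in these 4 tissues, and 26 of their 72 values were listed at 0. No gene of the 10 was past 2 times. Among all genes tested, 0.539% were higher and 0.161% lower in eyes, 0.904% and 0.205% in prostate, 0.221% and 0.481% in heart, and 0.319% and 0.328% in MEFs. Over testes and these 4 tissues only 4 of 50 pairs of gene and tissue had a mean of at least 1 FPKM, so a change of the rest could not have been counted.

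Across the 14 groups each gene had its highest level in KO spleen. For 6 genes (*Ctrb1*, *Ctrl*, *Cpa1*, *Cpb1*, *Pnlip* and *Cel*) the next highest level was that of WT spleen. For *Cela2a* and *Clps* it was WT testes, for *Cela3b* KO testes, and for *Cela1* WT liver. KO spleen exceeded the next group 15.0 times for *Cela1* and between 150 times (*Cela3b*) and 693 times (*Cel*) for the rest. Below the KO spleen value the levels of the 9 genes other than *Cela1* were at most 1.28 FPKM, and without a spread per group their order there is not established.

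Other products of the acinar cell were followed with a list of 30 secreted proteins, of which 28 are in the table. In spleen 18 of the 28 reached a mean of 1 FPKM, and these 18 were higher in KO by more than 2 times. Of the 18, 17 had a WT value under 1 FPKM and passed the filter only through KO spleen, so that they had to be higher in KO, and the count carries no weight. The exception was *Gp2*, at 1.13 FPKM in WT and 19.4 in KO. The median change over all 28 genes, without the filter, was 6.92. Over all genes in spleen it was 0, and over those with a mean of at least 1 FPKM -0.02. The largest changes were those of the trypsinogens *Try5* (0.168 to 150 FPKM), *2210010C04Rik* (0.192 to 146) and *Prss2* (0.825 to 407), the lipase relative *Pnliprp1* (0.143 to 114), the granule protein gene *Sycn* (0.160 to 116) and *Try4* (0.144 to 105). The digestive amylase *Amy2a1* was listed at 0 in WT and at 25.7 FPKM in KO. Its near-identical copies *Amy2a2*, *Amy2a4* and *Amy2a5* were listed at 0 in both genotypes, so the amylase reads may have been assigned to 1 copy. This list was also chosen with the spleen values known.

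The regulators that keep acinar cells in their state were at low levels in KO spleen. *Ptf1a*, the factor that switches on the enzyme genes, was listed at 0 in WT and at 0.0439 FPKM in KO, and *Rbpjl*, its partner in the mature acinar cell, went from 0.0680 to 0.511 FPKM. *Bhlha15*, which organises the secretory apparatus and is also made by plasma cells, went from 1.71 to 3.40 FPKM, a change of 0.95. *Nr5a2* was at 0.0340 FPKM in WT and 0.0865 in KO, and *Gata4* at 0.0751 and 0.0654. Of the 5 regulators, 4 thus had a higher value in KO and *Gata4* a lower one. Among the 21590 genes above 0 in spleen, 56.1% had a lower value in KO. With so few genes and such low values, no direction is read from the count. Only *Bhlha15* reached a mean of 1 FPKM, and it was not past 2 times. A change of the other regulators could not have been counted. Of the 3 membrane proteins, the acinar water channel gene *Aqp12* went from 0.0174 to 1.18 FPKM and the cholecystokinin receptor *Cckar* from 0.0399 to 0.772 FPKM, both below that mean.

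Markers of the other cells of the pancreas, of adipocytes and of stomach and intestine each summed to at most 23.4 FPKM in spleen of either genotype. The 10 endocrine islet genes summed to 0.127 FPKM in WT spleen and 0.208 in KO spleen, *Ins1* and *Ppy* were listed at 0 in both, *Ins2* was at 0.0420 and 0.0268 FPKM and *Gcg* at 0.0633 and 0.0374. *Mafa* was at 0.0203 and 0.0815 FPKM, and *Sst*, *Pyy*, *Iapp* and *Pdx1* were listed at 0 in WT and at no more than 0.0332 FPKM in KO, so that 5 of the 10 had a higher value in KO. The 6 duct genes summed to 3.64 FPKM in WT and 2.65 in KO, with *Krt19* at 1.48 and 0.821. The 7 stomach genes summed to 0.153 and 0.306 FPKM, with *Gkn1*, *Gkn2* and *Tff1* listed at 0 in both. The 6 intestine genes summed to 6.64 and 5.73 FPKM, with *Cdx1* and *Cdx2* listed at 0 in both. The 7 adipocyte genes summed to 17.3 and 23.4 FPKM, most of it from *Fabp4* at 14.7 and 21.3. *Adipoq* was at 0.599 and 0.217, a change of -1.14 in a gene below the mean of 1 FPKM. Of the 7, 3 had a higher value in KO and 4 a lower one. Among the 21590 genes above 0 in spleen, 56.1% had a lower value in KO. No direction is read from the adipocyte or endocrine count. Only 5 of the 36 genes of these lists reached a mean of 1 FPKM in spleen, and none of the 5 was past 2 times.

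Spleen's own markers were present in both genotypes. The T-cell gene *Cd3e* was at 23.8 FPKM in WT and 25.3 in KO, and *Tlx1*, a factor needed for spleen formation, at 12.0 and 8.44. Of 12 hepatocyte markers 2 reached a mean of 1 FPKM in spleen. *Alb* (albumin), at 4.85 FPKM in WT and 0.0366 in KO, was lower by more than 2 times, and *Ass1* was at 12.2 FPKM in both. Below that mean *Apoa1* was at 0.857 and 0.00862, *Ahsg* at 0.501 and 0.00569, *Ttr* at 0.644 and 0.0383, and *Hnf4a* at 0.0228 and 0.0801. In all, 10 of the 12 had a lower value in KO spleen, as had 56.1% of the 21590 genes above 0 there. The summed level of the 12 was 20.4 FPKM in WT and 13.0 in KO, most of it from *Ass1*. The part that tissue of another organ in either spleen group had in the enzyme levels was not tested.

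**Figure D4:**
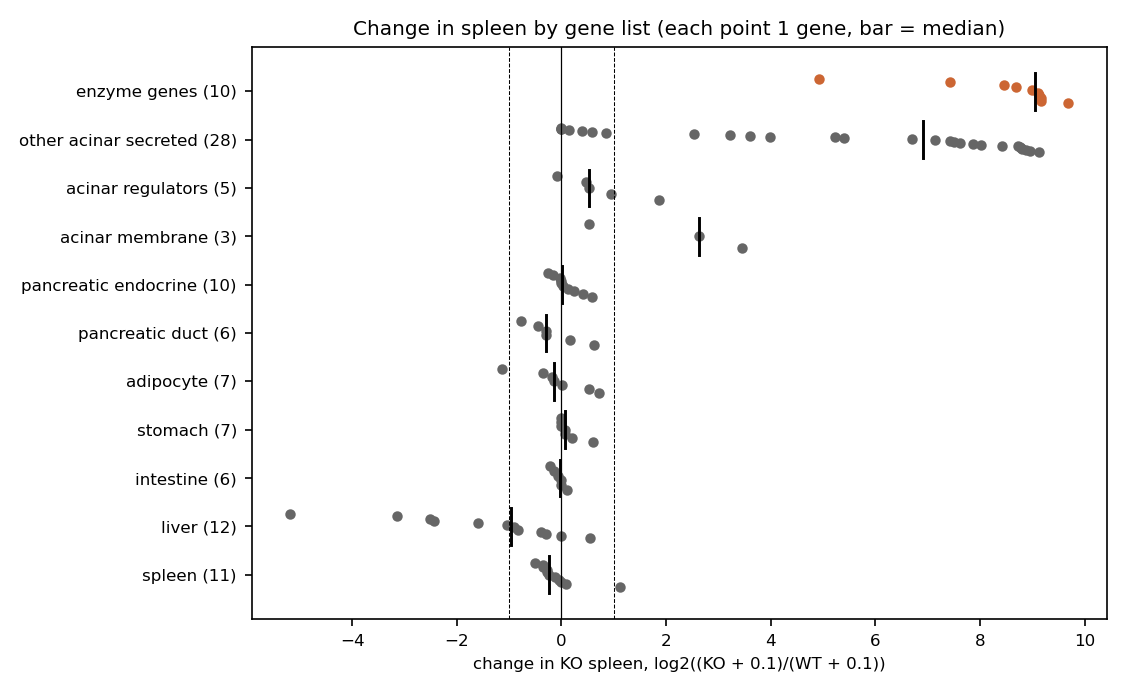
Change in spleen, log2((KO + 0.1)/(WT + 0.1)), of each gene of 11 lists, with the number of genes in brackets, a bar at each median and dashed lines at 2 times. The 10 enzyme genes lie between 4.92 and 9.69 and the median of the other acinar secreted genes is 6.92, while endocrine, duct, stomach and intestine genes lie between the dashed lines and several liver genes lie to the left, Alb farthest; genes below a mean of 1 FPKM are included.

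Over the 14 groups, 19942 genes with a highest value of at least 1 FPKM were compared with the mean profile of the 10 enzyme genes on the log2(FPKM + 0.1) scale. The 10 most alike were *2210010C04Rik* (Pearson r = 0.991), *Try4* (0.987), *Zg16* (0.986), *Prss2* (0.986), *Sycn* (0.984), *Reg1* (0.984), *Tmed11* (0.975), *Try10* (0.974), *Reg2* (0.973) and *Amy2a1* (0.971). Of these all but *Tmed11* are on the list of other acinar secreted genes. The values of r rest mainly on the single KO spleen group and are a description. Among the enzyme genes themselves r with the mean ran from 0.718 for *Cela1* to 0.994 for *Cel*. Each of them is part of that mean, which raises its r, so these values are not comparable with those above.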

How the data were processed

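The authors deposited 1 table with a value for WT and a value for KO of each gene and tissue. The header names no unit. Its columns follow the format that Cuffdiff writes, so the deposited values were read as FPKM, combined by the authors over the animals of a group. The submitters' processing notes name CASAVA 1.8.2, TopHat2, Cuffdiff and the build mm10, whereas the methods of the study describe another route for its RNA-seq. The annotation release is not given in the sources used here. The table also holds the authors' fold changes, test statistics, p-values and q-values, which were not used. Adult brain, whose groups no sample label gives, was not analysed here.

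Values were compared on the log2(FPKM + 0.1) scale, within a tissue, for genes with a mean of at least 1 FPKM (pandas 2.3.3, numpy 2.4.6), and a gene was counted past 2 times. This scale understates the change of low genes. The counting step was tested on simulated data, with changes planted only in genes of higher WT level than the enzyme genes other than *Cela1* have in spleen. That test does not cover such low values. Read depth is unknown. With no value per animal there was no test, SD or p-value. The enzyme genes and the gene lists were chosen with earlier results of these data known. All 10 genes are named in every tissue, from each list up to 6 genes with the largest change in spleen, and others where a sentence singles them out, which were chosen after their values were seen. The values of some spleen marker genes are not reported here.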

Additional observations from a re-analysis of the deposited data

How the results depend on the processing

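The count of 10 enzyme genes past 2 times in KO spleen did not change with a pseudocount of 1 or 0.01, without the filter on low values, with a mean of at least 5 FPKM, with a limit of 1.5 or 4 times, with equal group totals, or with changes centred on the median. These genes were chosen on their spleen values, so that count was bound to stay at 10 and carries no weight. The changes themselves ran from 4.84 to 8.31 with a pseudocount of 1 and from 4.93 to 10.25 with 0.01, beside 4.92 to 9.69. Without the filter on low values, 2 enzyme genes were lower in KO liver (*Ctrb1* and *Pnlip*, listed at 0 there), and of the other acinar genes 1 was higher and 1 lower in liver and 1 was lower in the remaining tissues, against 0 each with the filter. With a limit of 1.5 times, 1 other acinar gene was lower in liver and 3 were higher in the remaining tissues, the latter against 1 at 2 times. That count was 2 with a pseudocount of 0.01 and 2 with equal totals. Equal totals moved every change by 0.16 in liver and 0.10 in testes on the log2 scale, and by less elsewhere. No paired analysis was possible because the table holds 1 combined value per genotype and tissue, and for the same reason no replicate could be left out in turn. Depth is unknown, so low WT values limit every ratio in spleen and the comparison in liver.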

Other observations

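Some secreted proteins of the acinar list were abundant outside spleen in both genotypes. In prostate *Rnase1* was at 964 FPKM in WT and 993 in KO, and *Pnliprp1* at 407 and 505, while the 9 enzyme genes other than *Cela1* were at most 0.130 FPKM there. In eyes the granule membrane glycoprotein gene *Gp2* was at 1.16 FPKM in WT and 15.5 in KO, beside the mucin gene *Muc5ac* at 0.325 and 4.86 and *Tff1* at 0.454 and 5.67, with none of the 10 enzyme genes past 2 times in that tissue.

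Of the 12618 spleen genes with a mean of at least 1 FPKM, the 50 with the largest rises in KO were listed. Of these 50, 10 were enzyme genes and 18 were on the list of other acinar secreted genes. Both sets were chosen with the spleen values known, so these counts carry no weight. Of the other genes among the 50, those named here were chosen after their values were seen. Among them were the trefoil factor *Tff2* (0.0262 FPKM in WT and 15.9 in KO) and *Dmbt1* (0.0455 and 7.11). The protein disulfide isomerase *Pdia2* (0.727 and 10.8), the kallikrein *Klk1* (3.96 and 37.7) and *Reg3d* (0.00556 and 2.02) were also there. The 50 also held the neutrophil granule genes *Mpo* (4.86 and 17.1), *Elane* (6.67 and 21.2) and *Prtn3* (5.70 and 17.9). Their changes, from 1.63 to 1.797, were far smaller than those of the enzyme genes. Further genes of the 50 were the predicted genes *Gm17374* (0 and 29.9) and *Gm17571* (60.2 and 220), and *Rps4y2* (3.90 and 50.7). Others of the 50 are not named here.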
